A study of Caenorhabditis elegans with 2 samples.

Results

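Mitochondrial ribosomal protein genes, whose names begin with mrpl- for the large subunit or mrps- for the small subunit, were examined for chromatin recovered with M03D4.4, a Caenorhabditis elegans protein predicted to bind DNA through C2H2 zinc fingers. The annotation held 70 such genes among 19973 nuclear protein-coding genes, 41 of the large and 29 of the small subunit by name. The subunit was read from the name alone throughout. They lay on all autosomes and none lay on X. A gene was counted where the summit of a deposited peak, the single base of highest signal, fell within a window that begins 1000 bp before its 5' end and closes 500 bp after it.

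The worms were strain OP696, with the genotype unc-119(tm4063) III; wgIs696. The integrated transgene wgIs696 carries M03D4.4 fused at its C-terminus to GFP and FLAG, and all chromatin came from this 1 line. Mixed-stage embryos of pooled sex were taken 2 h after synchronization by egg bleaching, and sonicated chromatin was precipitated with an anti-GFP antibody. The 2 biological replicates form a single group, so no conditions were compared and no test was made. Whole embryos were used, so the cell types behind a peak are unknown. No peak list from an untagged strain or from another tagged protein was analysed here, and binding of M03D4.4 cannot be told apart from recovery that does not depend on it.

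Mitochondrial ribosomes translate the few proteins that the mitochondrial genome encodes, nearly all of them subunits of the respiratory chain. Their RNAs come from the mitochondrial genome, while their proteins are encoded in the nucleus, made in the cytosol and imported. In worms, knockdown of mrps-5 is known to trigger the mitochondrial unfolded protein response and to extend lifespan. In C. elegans many housekeeping genes sit close behind a neighbour on the same strand and are transcribed with it as an operon, so that the promoter in use can lie at another gene. Others share a short region with a divergent neighbour on the opposite strand.

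The lists held 1423 nuclear peaks past a threshold on the irreproducible discovery rate (IDR), with signals of 146.6 to 2198 and a median of 205.4, and 29980 weaker and stronger nuclear peaks called on the pooled replicates, with signals down to 41.1. The IDR peaks were the top of the pooled list by signal. Of the nuclear IDR peaks, 24.7% lay on X, which holds 13.7% of the protein-coding genes and none of the genes described here, and 24.0% lay within 500 bp of a small RNA gene (tRNA, rRNA, snRNA, snoRNA or microRNA). The files hold peaks without read counts, so the depth behind each replicate is unknown. Signals are the authors' values in arbitrary units. Apart from the replicates set side by side, they are compared only within a list. Whether the replicate lists share a scale is unknown. All positions are on the ce11 build.

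Of the 70 genes, 8 had an IDR summit in their window, which is 11.4% (exact Clopper-Pearson 95% interval 5.065% to 21.3%, counting error over genes only). Among all protein-coding genes the share was 4.69%, and among autosomal ones it was 4.59%. With a window that begins only 500 bp upstream, the count was 4 (5.71%), against 3.63% of all genes, and with summits near small RNA genes left out it was 6 (8.57%), against 4.11%. The 8 were mrps-28, mrpl-23, mrpl-45, mrpl-12, mrpl-15, mrps-34, mrpl-39 and mrps-7. By subunit they made up 5 of 41 large-subunit genes (12.2%) and 3 of 29 small-subunit genes (10.3%). Chromosome III, with 22 of the 70 genes, held 3 of the 8, and chromosome II held none for its 12 genes. The shares of all protein-coding genes on single autosomes were not counted, so no pattern by chromosome can be read from these counts. The median signal of the 8 summits was 248, against 211 for the 714 IDR summits in the window of any protein-coding gene. With summits near small RNA genes left out, the medians were 236 and 204.

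The sequence at the 6 of these summits that can be shown is given below, as 101 bases centred on the summit, on the strand of the ribosomal protein gene, from the RefSeq WBcel235 assembly (ce11). They are shown because they passed the IDR threshold. The summits of mrpl-23 and mrpl-15 passed it too and are not shown. Capitals mark AAGTGCGC, GTCCGCAAA and, at mrps-28, the reverse complement of GGTTCGA, which are described further on; a window in lower case throughout holds none of them. The windows lie at chrV:19643189-19643289 (plus strand) for mrps-28, chrIII:1202290-1202390 (minus strand) for mrpl-45, chrIII:10707198-10707298 (plus strand) for mrpl-12, chrIII:4542506-4542606 (minus strand) for mrps-34, chrV:1821404-1821504 (plus strand) for mrpl-39 and chrIV:14767904-14768004 (minus strand) for mrps-7.
mrps-28: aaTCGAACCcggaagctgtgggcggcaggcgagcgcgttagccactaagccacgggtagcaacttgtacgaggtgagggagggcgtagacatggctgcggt
mrpl-45: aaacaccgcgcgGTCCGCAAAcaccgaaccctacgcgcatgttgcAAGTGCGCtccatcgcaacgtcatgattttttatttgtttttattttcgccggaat
mrpl-12: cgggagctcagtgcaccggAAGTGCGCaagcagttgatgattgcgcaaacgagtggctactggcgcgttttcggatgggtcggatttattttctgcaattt
mrps-34: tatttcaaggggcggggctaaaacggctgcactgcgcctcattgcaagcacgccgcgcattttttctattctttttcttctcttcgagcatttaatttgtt
mrpl-39: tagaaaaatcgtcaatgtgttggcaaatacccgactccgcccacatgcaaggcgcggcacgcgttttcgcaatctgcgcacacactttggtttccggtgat
mrps-7: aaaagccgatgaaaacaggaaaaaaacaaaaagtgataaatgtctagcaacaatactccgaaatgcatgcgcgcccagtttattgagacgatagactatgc

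The strongest of the 8 summits, at mrps-28 and mrpl-23, lay inside an intron of another gene and next to an annotated snoRNA gene, 1 of the small RNAs that guide modification of other RNAs. The mrps-28 gene (WBGene00012830, V, 19644239 to 19645676, plus strand) encodes a small-subunit protein. Its summit had a pooled signal of 1198, which ranked 12 in the pooled list, with 629.9 in replicate 1 and 568 in replicate 2. It stood exactly 1000 bp upstream of the mrps-28 5' end, at the edge of the window. The same base lay in an intron of Y43F8C.7, 791 bp inside that gene's 5' end, and 52 bp upstream of the snoRNA gene Y43F8C.22. The matched summits of the replicates lay 7 and 2 bp farther out, past the edge. This summit therefore entered the count of mrps-28 by the width of the window alone.

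At mrpl-23 (WBGene00020348, I, 6211270 to 6211885, minus strand), whose product belongs to the protein family at the exit of the ribosomal tunnel, the pooled signal was 666, ranked 77, with 326.5 in replicate 1 and 338 in replicate 2. This summit lay 986 bp upstream, in an intron of fars-1, a cytosolic phenylalanyl-tRNA synthetase gene on the same strand that ends 95 bp before mrpl-23. It fell within an annotated tRNA pseudogene, within the non-coding RNA gene T08B2.14 on the opposite strand, and 47 bp upstream of the snoRNA gene T08B2.13. A second, much weaker summit with a signal of 67.2 lay 155 bp inside mrpl-23 itself. The signal of both leading summits agreed closely between replicates, with log2 differences of replicate 2 minus replicate 1 of -0.15 at mrps-28 and 0.05 at mrpl-23. Over the 1418 nuclear IDR peaks matched in both replicates that difference had a median of -0.19 and an SD of 0.46. Whether the peaks belong to the snoRNA genes, their hosts or the ribosomal protein genes cannot be told apart from the lists.

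**Figure D1:**
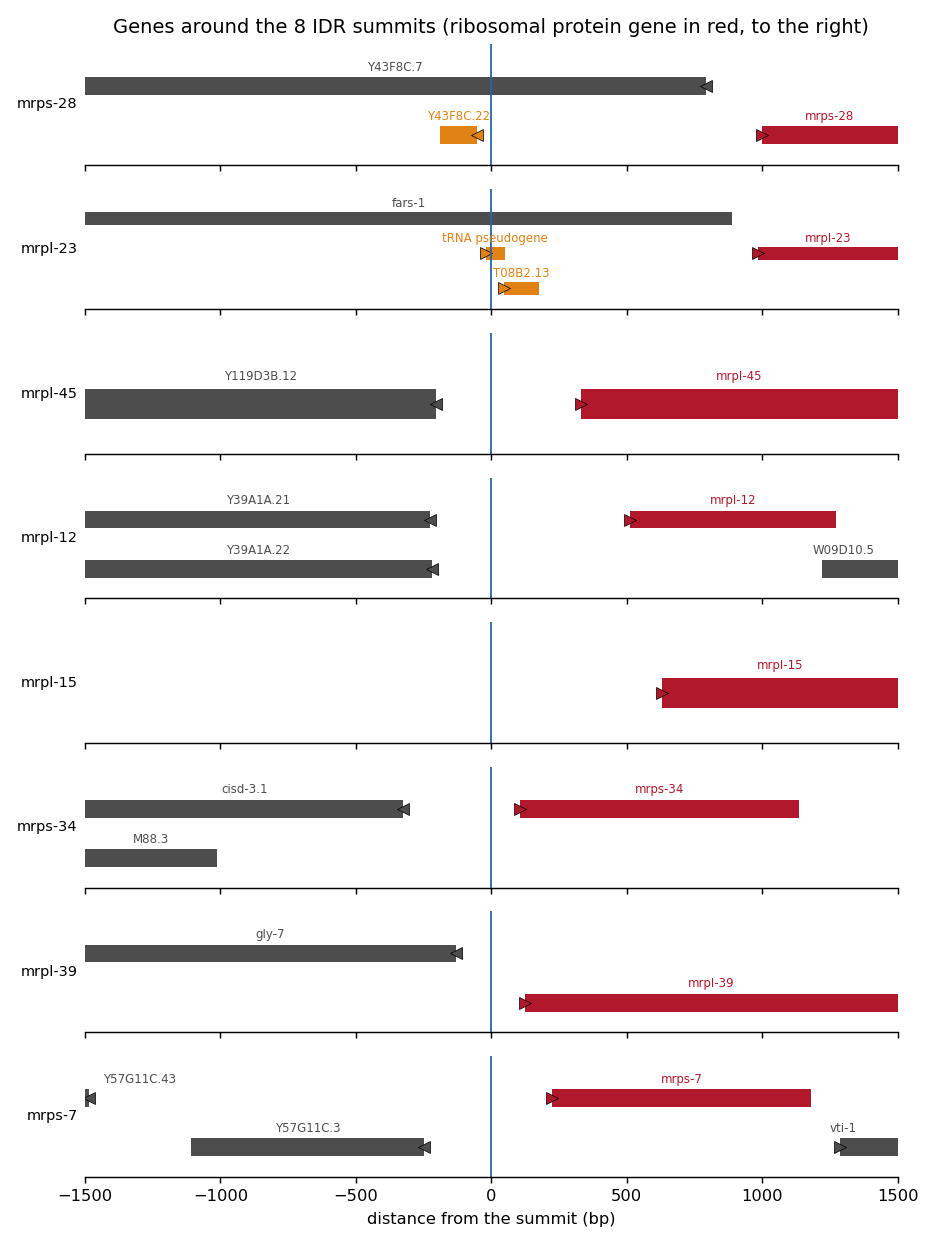
Protein-coding genes, small RNA genes and the tRNA pseudogene within 1500 bp of each of the 8 IDR summits (x axis, distance from the summit in bp, with each locus turned so that the ribosomal protein gene runs to the right). Ribosomal protein genes are red, other protein-coding genes grey and non-coding genes orange, arrowheads mark 5' ends and the blue line is the summit; at mrps-28 and mrpl-23 the summit lies in another gene's intron beside a snoRNA gene, at 5 loci it lies between divergent genes, and at mrpl-15 it stands alone.

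The other 6 summits had no small RNA gene within 500 bp, and 5 of them lay between the 5' ends of divergent genes. The mrpl-45 gene (WBGene00022493, III, 1196389 to 1202008, minus strand) encodes the counterpart of a mammalian protein that holds the mitochondrial ribosome at the inner membrane. Its summit had a pooled signal of 309, ranked 332, with 150.2 in replicate 1 and 165 in replicate 2. The position was 332 bp upstream of mrpl-45 and 206 bp upstream of Y119D3B.12, the nearer of the pair, in an interval of 538 bp between their 5' ends. A weaker summit with a signal of 115.2 stood 535 bp upstream of mrpl-45, 3 bp from the 5' end of Y119D3B.12. Signal in the shared interval thus extended to the side of the neighbour.

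The product of mrpl-12 (WBGene00012361, III, 10707761 to 10708521, plus strand) belongs to the family that forms the stalk where elongation factors dock. Here the pooled signal was 255, ranked 479, and the replicates gave 129 and 122. The summit lay 513 bp upstream of mrpl-12 but only 220 bp upstream of Y39A1A.22 and 226 bp upstream of Y39A1A.21, both divergent. At mrps-34 (WBGene00010905, III, 4541420 to 4542452, minus strand), which encodes a small-subunit protein that animal mitochondria have and bacteria lack, the signals were 232 pooled, ranked 577, and 97.6 and 132 in replicates 1 and 2. Its summit, 104 bp upstream, was nearer to mrps-34 than to the divergent cisd-3.1, an iron-sulfur domain gene 325 bp away.

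The summit at mrpl-39 (WBGene00044344, V, 1821579 to 1823096, plus strand), a large-subunit gene related to threonyl-tRNA synthetases in mammals, had 206 pooled, ranked 711, with 102 in replicate 1 and 97.2 in replicate 2. It stood 125 bp from mrpl-39 and 131 bp from the glycosyltransferase gene gly-7, almost midway between 5' ends 256 bp apart. The weakest of the 8, at mrps-7 (WBGene00013324, IV, 14766773 to 14767730, minus strand), which encodes a protein of the small-subunit head, had 154 pooled, ranked 1284, with 98.1 in replicate 1 and 53.8 in replicate 2. It lay 224 bp upstream of mrps-7 and 247 bp upstream of Y57G11C.3. The replicates differed most here among the 8, with a log2 difference of -0.87, and the peak ranked 956 in replicate 1 against 3550 in replicate 2.

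Only mrpl-15 (WBGene00022373, I, 1436279 to 1441334, plus strand), a gene for a core protein of the large subunit, had an IDR summit with no other gene's 5' end in reach. Its upstream neighbour on the same strand ended 11077 bp away. The summit lay 629 bp upstream with a pooled signal of 241, ranked 541, and 98.1 and 138 in replicates 1 and 2, a log2 difference of 0.50. Among the 8 summits, 5 fell in the windows of more than 1 protein-coding gene, while 33.3% of the 714 IDR summits in coding windows did so. When each summit was given to the nearest protein-coding 5' end alone, 5 of the 70 genes had one, against 3.45% of all genes. Non-coding genes were not counted, so mrpl-23 kept a summit that lies nearer to a snoRNA gene. The genes mrpl-15, mrps-34, mrps-7 and mrpl-39 also kept theirs, and mrps-28, mrpl-45 and mrpl-12 lost theirs to a neighbour. All 8 summits matched a peak in both replicate lists by an overlap of at least 50% of either peak, which is a description, since the IDR list was derived from those lists.

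Below the IDR threshold, summits of the pooled list were common at these genes. A pooled summit of any strength lay in the window of 48 of the 70 genes (68.6%, interval 56.4% to 79.2%), against 38.3% of all protein-coding genes. Summits in the pooled list and in the lists of both replicates were found for 34 (48.6%), against 26.4% of all genes. Large and small subunit genes had like shares of pooled summits, 28 of 41 and 20 of 29, and median strongest signals of 66.0 and 90.5. The median over the 48 genes was 86.9, against 70.1 over all 7650 genes with a pooled summit.

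**Figure D2:**
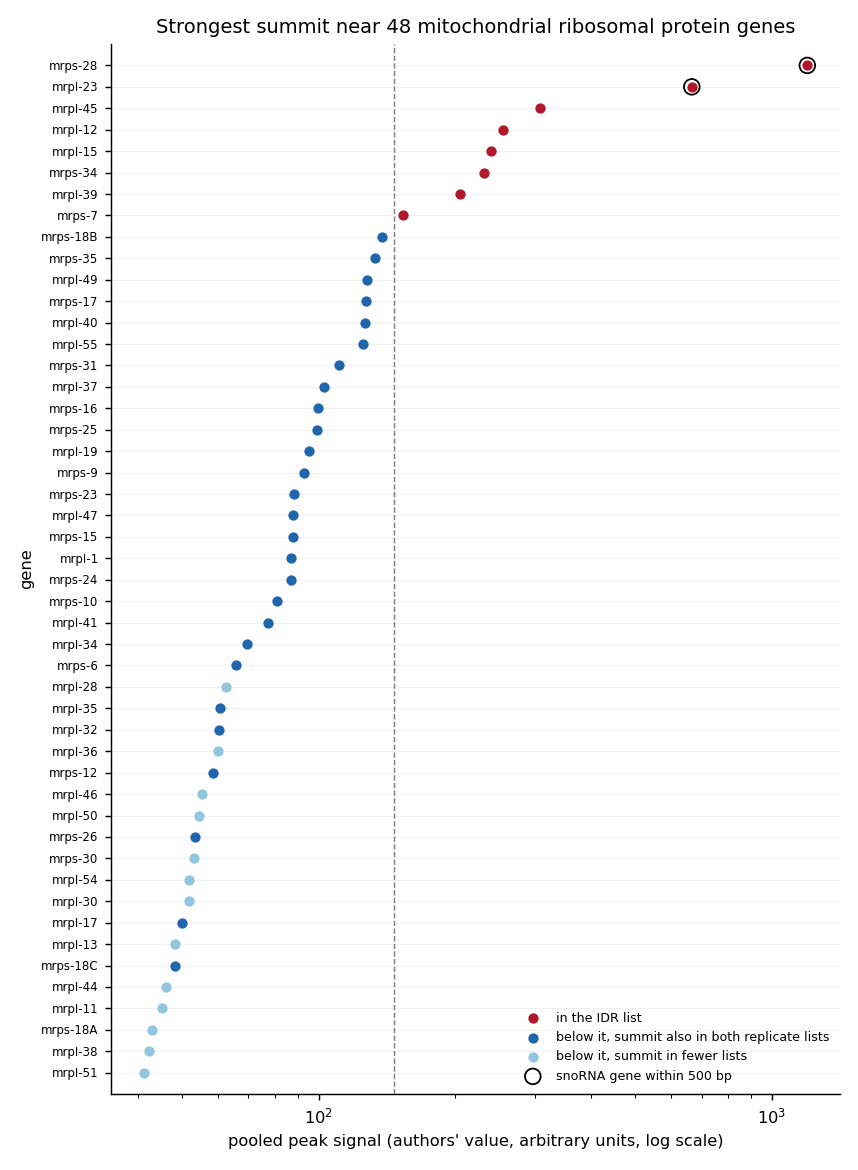
Signal of the strongest pooled summit in the window of each of the 48 genes that had one (x axis, authors' pooled signal on a log scale; 1 point per gene, ordered by signal). The dashed line is the lowest IDR signal, 146.6; 8 genes lie above it, and mrps-18B at 138 is the first below.

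The gene just outside the IDR list was mrps-18B, for 1 of several small-subunit S18 proteins, with 138 in the pool (ranked 1612), 61.1 in replicate 1 and 74.0 in replicate 2, set against 154 for mrps-7 just inside. Its summit lay 125 bp upstream, between mrps-18B and the divergent splicing factor gene prp-9. Next came mrps-35, with 133 pooled, 80.8 and 49.5 in replicates 1 and 2, at -141 bp in an exon of the overlapping divergent gene sws-1. Then mrpl-49 had 128 pooled, 62.0 and 70.9 in the replicates, at -176 bp, in a region shared with rpl-28, a cytosolic ribosomal protein gene. These 3 genes lay just under the threshold in the pool, and neither replicate was the higher in all of them.

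Among the next genes, mrps-17, a gene for an RNA-binding small-subunit protein, had 128 pooled with 67.9 and 59.8 in replicates 1 and 2, at -122 bp. That summit was shared with the divergent txdc-9, 258 bp away. The large-subunit gene mrpl-40 had 126 pooled with 80.0 and 47.2 in the replicates, at -130 bp and nearer to the divergent F54C4.4, 48 bp away. At mrpl-55 the values were 126 pooled with 57.0 and 65.1, at -103 bp, with no divergent gene in reach. All of these stood between 100 and 180 bp upstream of the gene they were counted for. Further down, mrps-31 had 111 pooled with 52.7 and 58.2 in the replicates, at -70 bp. At mrpl-37 the pooled 103 came with 66.6 and 32.9, at -615 bp and nearer to the divergent lin-38, a synthetic multivulva gene. For mrps-16 the pool gave 99.7 and the replicates 54.0 and 52.9, at -190 bp. The 2 replicates were nearly equal at mrps-16 and differed by a log2 value of -1.02 at mrpl-37.

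Next came mrps-9 with 92.8 pooled (65.3 and 23.9 in replicates 1 and 2), mrps-23 with 88.1 (52.0 and 26.6) and mrpl-47 with 87.9 (45.8 and 44.4). The mrps-23 summit lay in an exon of another gene, prp-40. Pooled summits also stood at mrps-25, with 99.2, and mrpl-19, with 95.2. The first lay 391 bp upstream of mrps-25 and nearer to the divergent Y55F3AM.13, 188 bp away. Each of these genes had a second pooled summit nearby. The replicate peaks of mrps-25, 32.6 and 59.0, both had summits nearer to that second one, as had the replicate 2 peak of mrpl-19, 51.7, while its replicate 1 peak, 64.7, sat on the named summit. Replicate values of those genes therefore mix neighbouring summits. The widest replicate difference among the named weaker genes, a log2 value of -1.45, was at mrps-9, whose replicate 2 peak ranked 27860 of 29985. Of the 12 named weaker genes whose replicate peaks were both nearest to the named summit, replicate 1 was the higher in 8 and replicate 2 in 4. Over the matched nuclear IDR peaks the median log2 difference, -0.19, also lay towards replicate 1. One pooled summit of 86.9 (44.1 in replicate 1 and 45.4 in replicate 2) lay 207 bp upstream of mrpl-1 and 137 bp upstream of mrps-24, a large-subunit and a small-subunit gene that face away from each other, with the 5' end of emc-6, which overlaps mrpl-1, in between. This was the single summit that 2 mitochondrial ribosomal protein genes shared as their strongest. The remaining genes with a pooled summit ranged from 87.9 at mrps-15 down to 41.3 at mrpl-51.

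**Figure D3:**
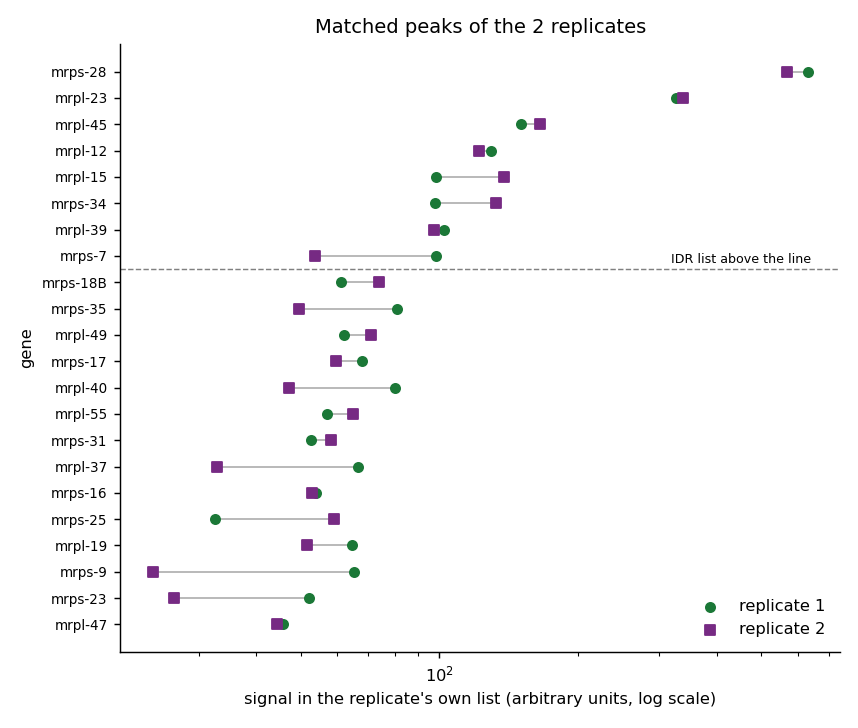
Signal of the matched peak in replicate 1 (green circles) and replicate 2 (purple squares) for the 8 genes in the IDR list and the 14 strongest genes below it (x axis, signal in the replicate's own list, log scale; genes in order of pooled signal). Replicates lie close together at mrpl-23 and mrpl-47 and far apart at mrps-7, mrpl-37 and mrps-9; at mrps-25 (both replicates) and mrpl-19 (replicate 2) the matched peak lies nearer to a second pooled summit.

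The strongest summits of these genes sat close to the 5' end. Over the 48 genes the median position was 143.5 bp upstream (quartiles 304.5 and 101.25 bp upstream), against 214 bp over all genes with a pooled summit. For 28 of the 48 (58.3%) the summit lay within 300 bp upstream, against 32.8% of all such genes. In that stretch the share was 61.8% for nuclear genes of oxidative phosphorylation and 43.8% for cytosolic ribosomal protein genes. It was 46.7% for the other mitochondrial genes listed further on. With a divergent gene within 1000 bp upstream it was 68.2% here and 47.5% among all genes so placed. The small-subunit genes counted 15 of 20 in that stretch and the large-subunit genes 13 of 28. The 8 IDR summits had a median position of 422.5 bp upstream, against 245 bp for IDR summits of all protein-coding genes. Without the summits near small RNA genes, those of mrps-28 and mrpl-23, the medians were 278 bp and 233 bp.

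**Figure D4:**
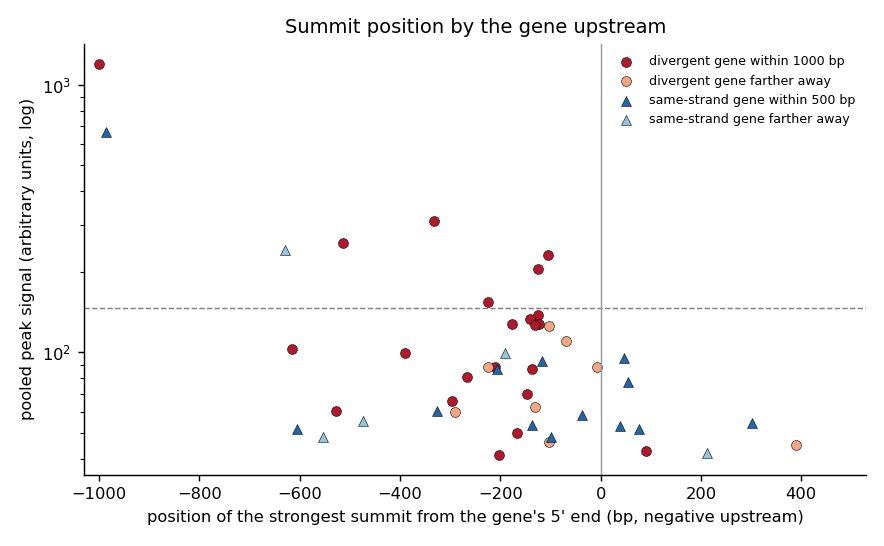
Position of the strongest pooled summit relative to the gene's 5' end (x axis, bp, upstream negative) against its pooled signal (y axis, log scale) for the 48 genes, coloured by the gene upstream. The dashed line is the lowest IDR signal, 146.6; most points lie within 300 bp upstream, and the 2 strongest stand at the far edge of the window, at -1000 and -986 bp.

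The neighbourhood of these genes differed from that of the genome, and the shares with a summit differed between kinds of neighbourhood. A divergent gene within 1000 bp lay upstream of 26 of the 70 (37.1%), against 18.6% of all protein-coding genes, and a same-strand gene within 500 bp lay upstream of 29 (41.4%), against 20.0%. Among the 26 with a close divergent neighbour, 6 had an IDR summit (23.1%), against 10.6% of all genes so placed, and 22 had a pooled summit (84.6%), against 48.7%. One of the 6 was mrps-28, whose summit lies inside its neighbour, and without summits near small RNA genes the count was 5 (19.2%), against 9.88%. Where the divergent neighbour was farther away, 8 of 9 genes had a pooled summit (88.9%), against 35.3% of all genes so placed, and none had an IDR summit, against 4.52%. With a same-strand gene farther away, 5 of 6 had a pooled summit (83.3%), against 34.1% of all genes so placed. An IDR summit was found for 1 of them (16.7%), against 2.59%. Among the 29 close behind a same-strand gene, mrpl-1 included because emc-6 overlaps it, only mrpl-23 had an IDR summit (3.45%), against 3.05% of all genes so placed, and 13 had a pooled summit (44.8%), against 40% of all. Close behind a same-strand gene, the shares of these genes were thus near those of all genes.

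**Figure D5:**
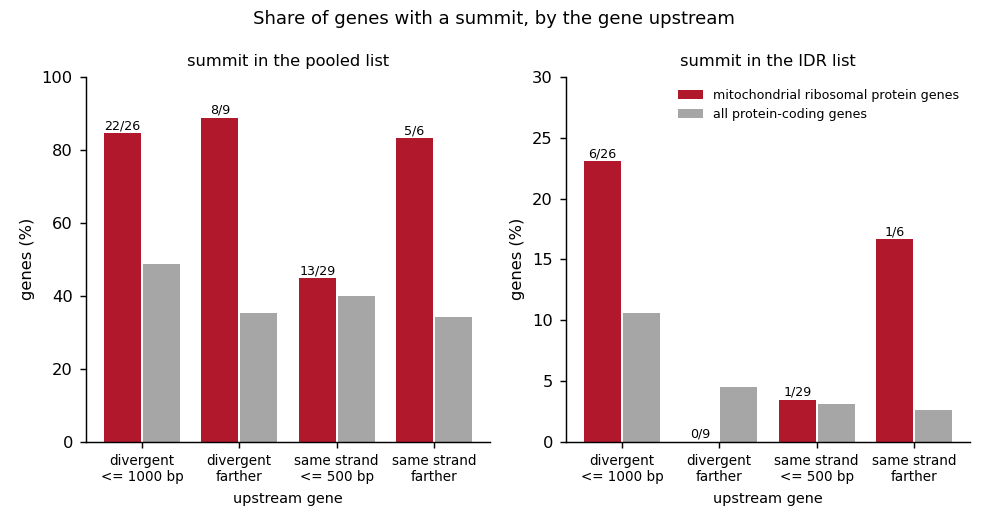
Share of genes (y axis, %) with a summit in the pooled list (left) and in the IDR list (right) by the gene upstream (x axis), for the mitochondrial ribosomal protein genes (red, with counts) and all protein-coding genes (grey). In the pooled list the red bar stands above the grey one with a divergent gene upstream, close (84.6% against 48.7%) or farther (88.9% against 35.3%). It also does so with a same-strand gene farther upstream (83.3% against 34.1%). With a close same-strand gene upstream the 2 bars lie near each other, 44.8% against 40%.

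The 41 genes that stood first or alone on their strand had pooled summits at 35 (85.4%), against 37.9% of all genes so placed. Of the 22 genes with no pooled summit, 16 were close behind a same-strand gene. Among all genes, 40% of those close behind a same-strand gene had a pooled summit, against 37.9% of the others. No summit in any of the 3 lists was found for 11 genes: mrpl-2, mrpl-4, mrpl-16, mrpl-20, mrpl-21, mrpl-24, mrpl-42, mrps-2, mrps-5, mrps-22 and mrps-33. The share of all protein-coding genes without a summit in any list was not counted. Lacking a pooled summit was less common here than among all genes, since 68.6% of these genes had one, against 38.3%. The gene mrps-5, known for its effect on lifespan, lay 103 bp behind sel-1. The pair mrps-2 and mrpl-4 followed each other 105 bp apart behind natc-1, and mrps-22 lay 105 bp behind dap-3, itself a gene for a small-subunit protein, which had no pooled summit either. The other 11 genes without a pooled summit had 1 in a single replicate list, 6 in replicate 1 and 5 in replicate 2.

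When each gene close behind others was given the window of the first gene of its same-strand run, the count of IDR summits came to 12 of 70, against 5.92% of all genes under the same rule. This rule was chosen after the summits had been seen, and it uses spacing, not an operon annotation. Of the 29 genes, 5 then had an IDR summit: mrps-14 through nrde-2 (a nuclear RNA interference gene), with 296 at -934 bp of that gene, mrpl-48 through vps-37 (an ESCRT subunit), with 214 at -167 bp, mrpl-54 through clsp-1, with 202 at -263 bp, mrpl-32 through rpn-3 (a proteasome subunit), with 197 at -236 bp, and mrps-30 through eif-3.E (a translation initiation factor subunit), with 156 at -226 bp. None of these 5 summits lay near a small RNA gene. The share of all genes close behind a same-strand gene that had such a summit by this rule was not counted. Of these genes 41.4% were so placed, against 20.0% of all, so the 5.92% is not a share over genes placed alike. By the same rule mrpl-23 lost its summit, which lies inside fars-1 and not at its 5' end.

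The words at the summits were set against the other IDR summits. In 101 bp around each of 1076 IDR summits that lay in no window of these genes and away from small RNA genes, the 5 words of 7 bases most raised over flanks 200 to 300 bp away were AGTGCGC (at 6.13% of the summits), AAGTGCG (at 5.11%), CGCGCGC (at 6.41%), CTGCGTC (at 7.81%) and GCCGCAC (at 5.11%), searched on both strands. At least 1 of them was present at 2 of the 6 IDR summits of mitochondrial ribosomal protein genes away from small RNA genes, against 23.4% of the 1076. The share was 7 of 58 (12.1%) at the weaker summits of these genes, against 5.27% at all 28557 weaker summits, and 12 of 70 (17.1%) in their promoters (250 bp upstream to 50 bp downstream), against 10.2% in all promoters. CGCGCGC and GCCGCAC were at none of these 6 and none of the 58 windows. No match says only that those letters were not in the window.

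The first 2 of those words overlap as AAGTGCGC, looked up after the sequences had been seen. It occurred at 5 of the 66 distinct summits of these genes, those of mrpl-45, mrpl-12, mrpl-47, mrpl-28 and the one that mrpl-1 and mrps-24 share. Those of mrpl-45 and mrpl-12 were among the 6 IDR summits away from small RNA genes. The others were among the 58 weaker summits. AAGTGCGC was present at 3.996% of the 1076 other IDR summits, 0.448% of weaker summits and 0.0465% of flanks. Of the promoters, 5 of 70 held it (7.14%), those of mrpl-47, mrpl-28, mrpl-36, mrpl-1 and mrps-24, against 1.16% of all. The promoters of mrpl-1 and mrps-24 overlap and hold the same copy. That copy was counted for both genes, as it was among the promoters above. Among words of 9 bases found at 5 or more summits of these genes, GTCCGCAAA was the scarcest at other weaker summits. It occurred at mrpl-45, mrps-16, mrpl-28 and mrpl-32 and at a weaker summit of mrpl-47, against 0.836% of the 1076 and 0.161% of weaker summits. This word was chosen on these very windows, so its count is no support for anything beyond them. The windows below, built as above, are shown because they hold these words; at mrpl-45, mrps-16 and mrpl-28 the bases CACC follow GTCCGCAAA. They lie at chrII:5474133-5474233 (plus strand) for mrps-16, chrII:156089-156189 (minus strand) for mrpl-28, chrIII:8449380-8449480 (plus strand) for mrpl-32, where capitals also mark CTGCGTC, and chrIV:7709858-7709958 (minus strand) for mrpl-1.
mrps-16: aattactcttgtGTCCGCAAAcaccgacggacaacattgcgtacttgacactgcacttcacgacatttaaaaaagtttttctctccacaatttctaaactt
mrpl-28: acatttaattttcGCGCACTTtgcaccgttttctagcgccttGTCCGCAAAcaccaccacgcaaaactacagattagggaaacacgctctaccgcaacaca
mrpl-32: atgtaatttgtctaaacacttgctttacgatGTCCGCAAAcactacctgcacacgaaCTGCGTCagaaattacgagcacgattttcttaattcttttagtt
mrpl-1: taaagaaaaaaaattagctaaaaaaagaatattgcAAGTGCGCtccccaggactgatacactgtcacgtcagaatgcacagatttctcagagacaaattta

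At mrps-28 the window held the reverse complement of GGTTCGA, the core of the B box by which tRNA genes are recognised. That word was present at 92 of the 341 IDR summits near small RNA genes (27.0%), against 1.39% of the 1076 away from them, and at no other summit and in no promoter of the mitochondrial ribosomal protein genes. G and C made up 62.4% of the bases at mrps-28 and 55.5% at mrpl-23. At the other 6 IDR summits they made up between 38.6% (mrps-7) and 52.5% (mrpl-12 and mrpl-39), against a median of 50.5% at the 1076. The 58 weaker summits had a median of 37.1%, against 40.6% at all weaker summits. The weaker windows varied, and that of mrpl-37, with 53.5%, was above the IDR median.

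Related gene lists gave the setting. A list of 25 other genes for mitochondrial translation, genome maintenance, chaperones and proteases had 5 with an IDR summit (20%) and 15 with a pooled summit (60%). Without the chaperones and proteases hsp-60, hsp-6, clpp-1 and lonp-1 it had 3 of 21 (14.3%) and 12 (57.1%). The strongest was ears-2, a mitochondrial glutamyl-tRNA synthetase gene, with 977 pooled, 507 in replicate 1 and 473 in replicate 2, at -34 bp. The mitochondrial chaperone hsp-60 had 565 pooled (290.5 and 288), and mtss-1, which encodes the mitochondrial single-stranded DNA binding protein, had 460.1 (241 and 220.3). These 3 stood above every mitochondrial ribosomal protein gene whose IDR summit lay away from small RNA genes. Each of the 3 summits also lay in another coding gene's window: uncp-18 for ears-2, Y22D7AL.10 for hsp-60 and mig-22 for mtss-1. The DNA polymerase gene polg-1 had 170.0 and hsp-6 had 150, near the threshold, and tufm-1, for the elongation factor of the same ribosome, stayed below it with 107. The hsp-6 summit also lay in the windows of C37H5.16, C37H5.15 and C37H5.5.

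Cytosolic ribosomal protein genes had IDR summits at 31 of 81 (38.3%) and pooled summits at 73 (90.1%), with a median strongest pooled signal of 128. Nuclear genes of oxidative phosphorylation had 8 of 45 (17.8%) and 34 (75.6%). The mitochondrial ribosomal protein genes, with 11.4% and 68.6%, had lower shares than both and higher shares than all protein-coding genes. The intervals of the IDR share overlapped between the mitochondrial ribosomal protein genes, up to 21.3%, and the oxidative phosphorylation genes, from 8.002%, but not the cytosolic ones, from 27.7%. These intervals treat genes as independent, which shared summits break, and the lists were not tested against each other.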

How the data were processed

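Chromatin immunoprecipitation followed by sequencing was done by the authors in 2 biological replicates, which form 1 group per the labels. Peak lists were deposited. Per the file headers, relaxed lists were called with a control for each replicate and for the pool, and the IDR list was derived from them. Each peak carries the authors' deposited signal, and its summit is deposited as a distance from the peak start. How reads were aligned, which caller was used, where the IDR threshold lay and how signals were scaled were not given in the sources used here. Depth is unknown, so no interval of a signal is given.

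Genes came from Ensembl release 115 and bases from the RefSeq WBcel235 assembly, which is ce11. Only the ce11 lists were used. Peaks of 2 lists were matched where they overlapped by at least 50% of either peak. A close divergent neighbour had its gene end within 1000 bp upstream, and a same-strand run had gaps of at most 500 bp. Named were all genes with an IDR summit, the 14 strongest others with a summit in the pooled and both replicate lists, the genes sharing those summits, and examples without a peak; mrpl-1, mrps-24, mrpl-28 and mrpl-32 were named after their sequences were seen, and genes behind a first gene with an IDR summit likewise. The genes, lists and rules were chosen with earlier results of these data known. The alternatives were other peak thresholds, windows, assignments of a summit and matches, leaving out small RNA neighbours, and each replicate alone; restriction to autosomes, the window of a run's first gene, and counts and positions by neighbour without small RNA genes or by list without chaperones were added after the data were seen. The steps were tested on simulated data. Python 3.11.15 was used with pandas 2.3.3, NumPy 2.4.6 and SciPy 1.17.1, and figures were drawn with Matplotlib 3.10.9.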

Additional observations from a re-analysis of the deposited data

How the results depend on the processing

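The count of 8 genes with an IDR summit was 4 (mrpl-39, mrpl-45, mrps-34 and mrps-7), against 3.63% of all genes, with a window from 500 bp upstream. It was 5 with each summit given to the nearest protein-coding 5' end alone, against 3.45% of all genes. It stayed within 1.5 times under the 9 other alternatives, the highest being 12 with the window of a run's first gene, where the genes changed. Restriction to autosomes could not change the count, because none of these genes lies on X. Nor could taking the same number of top pooled peaks, because the IDR peaks are the top of that list. With replicate 1 or 2 alone it was 7; mrps-28 was lost in both, mrps-7 without replicate 1, and mrps-18B gained there. Leaving out summits near small RNA genes gave 6, and 4.11% of all genes. The count of 48 genes with a pooled summit was 31, against 24.4% of all genes, with the upper 50% of pooled peaks by signal, and lay between 34 and 47 under the others. The median IDR signal of 248 was 219 with the shorter window, which leaves 4 genes, and 116 to 135 with 1 replicate left out, on the scale of the replicate lists. All 8 summits matched in both replicates under each matching rule. No paired analysis was possible because the design has 1 group. Intervals cover counting error over genes only, and 1 group without a list from another strain limits every share given.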
